A study of Mus musculus with 21 samples.

Results

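The transcripts of 8 ADAMTS proteases, Adamts1, Adamts2, Adamts4, Adamts5, Adamts9, Adamts10, Adamts12 and Adamts15, and of the related protease Adamdec1 were followed in mouse lung fibroblasts. They were taken by gene symbol, as 9 of the 23204 symbols with a row in the count files, and all 9 passed the filter on low counts. Adamdec1 passed it only through groups in which it was high. The cells came from lungs of female C57BL/6 mice that carried a Col1a2-GFP transgene, in which the promoter of a collagen gene drives a green fluorescent protein. Untreated mice were compared with mice given a single dose of bleomycin (BLM, 2 mg/kg) or crystalline silica (SiO2, 400 mg/kg) into the throat and taken at day 7, 14 or 63. The series calls the BLM fibrosis reversible and the SiO2 fibrosis progressive. Every group, untreated included, carried the transgene and passed the same sort, which kept GFP-positive cells negative for CD45, CD31, EpCAM, CD146, Ter119 and propidium iodide, at 10000 cells per sample. The 7 groups held 3 libraries each, 21 in all. The labels gave neither ages nor whether a library was 1 mouse or a pool, so p-values measure the spread between these samples, which may be technical.

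ADAMTS proteases are secreted zinc metalloproteases with thrombospondin type 1 repeats that anchor them in the extracellular matrix. In most of them the prodomain is removed by furin-type convertases. Several are inhibited by Timp3, and the endocytic receptor Lrp1 clears several of them. Adamts2 removes the amino-terminal propeptide of fibrillar procollagens. Adamts1, Adamts4, Adamts5, Adamts9 and Adamts15 cut large proteoglycans such as versican and aggrecan, Adamts10 binds fibrillin microfibrils, and Adamts12 cuts cartilage oligomeric matrix protein. Adamdec1 is a secreted protease of the ADAM family without thrombospondin repeats, known from macrophages and from fibroblasts of the gut.

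The catalytic zinc is held by 3 side chains of a short motif, and the codons of that motif are printed because they separate Adamdec1 from the other members. Each line gives the 33 coding bases, 5′ to 3′ on the sense strand (GENCODE vM21 on GRCm38, the mm10 assembly), with the codon of the third zinc-binding position in capitals.
Adamts1: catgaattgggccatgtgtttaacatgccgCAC
Adamts2: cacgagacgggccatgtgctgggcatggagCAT
Adamts4: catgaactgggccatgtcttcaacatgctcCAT
Adamts5: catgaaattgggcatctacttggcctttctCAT
Adamts9: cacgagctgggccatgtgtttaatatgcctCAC
Adamts10: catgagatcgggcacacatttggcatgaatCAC
Adamts12: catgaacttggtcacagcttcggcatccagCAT
Adamts15: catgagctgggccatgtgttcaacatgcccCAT
Adamdec1: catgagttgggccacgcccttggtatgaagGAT

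The last codon encodes histidine in the 8 ADAMTS genes and aspartate in Adamdec1. An asparagine codon stands at the eighth position in 4 of them (Adamts1, Adamts4, Adamts9 and Adamts15), all among the proteoglycan-cutting members, and a glycine codon in the other 5. In the 8 ADAMTS genes an intron splits the motif, while in Adamdec1 the 33 bases lie within exon 11 (chr14:68570127-68570159, minus strand). The ADAMTS motifs, intron included, lie at chr16:85799191-85799545 (Adamts1, minus), chr11:50775403-50776134 (Adamts2, plus), chr1:171253210-171253915 (Adamts4, plus), chr16:85878015-85887826 (Adamts5, minus), chr6:92905285-92908493 (Adamts9, minus), chr17:33538157-33538279 (Adamts10, plus), chr15:11241529-11255564 (Adamts12, plus) and chr9:30911255-30911690 (Adamts15, minus). Adamts1 and Adamts5 are neighbours on chromosome 16 with 53059 bases between them, both on the minus strand. Adamts15 lies 20109 bases from Adamts8 on chromosome 9, on the opposite strand.

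The 250 bases before the start of Adamts2 and Adamts12, which both rose in 5 of the 6 treated groups, are shown from RefSeq (GRCm38.p6), with matches to the GC box in capitals. RefSeq windows were at hand for 4 of the 9 members.
Adamts2: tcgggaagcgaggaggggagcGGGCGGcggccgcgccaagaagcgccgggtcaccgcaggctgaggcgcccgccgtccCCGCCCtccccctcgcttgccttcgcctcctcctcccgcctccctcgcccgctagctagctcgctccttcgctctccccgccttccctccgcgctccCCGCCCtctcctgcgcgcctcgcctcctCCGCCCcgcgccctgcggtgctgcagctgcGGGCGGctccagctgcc
Adamts12: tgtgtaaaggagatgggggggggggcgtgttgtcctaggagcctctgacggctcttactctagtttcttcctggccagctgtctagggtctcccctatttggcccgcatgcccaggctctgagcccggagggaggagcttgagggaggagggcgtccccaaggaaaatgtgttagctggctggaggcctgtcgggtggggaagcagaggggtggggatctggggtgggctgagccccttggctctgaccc

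The Adamts2 window (chr11:50601835-50602084, plus strand) has a G and C content of 78.0% and 5 matches to the GC box GGGCGG, counting both strands. The Adamts12 window (chr15:11064523-11064772, plus strand) has a G and C content of 63.2% and none of the searched motifs, which were the GC box, the TATA box (TATAAA) and the AP-1 site (TGACTCA or TGAGTCA), none of which overlaps another. Over all 32851 windows of this length the GC box was found in 32.7%, the TATA box in 12.4% and the AP-1 site in 4.46%, and the median G and C content was 52.4%. The windows of Adamts1 and Adamts9, members that fell in some groups, are not printed. They had 3 matches (Adamts1) and 1 match (Adamts9) to the GC box, with a G and C content of 65.6% and 71.2%. Adamts1 also had 1 TATA box match. A match describes the letters only.

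Total counts ran from 2080636 to 4477283 per library with a median of 3774431. Levels are given as CPM, the count of a gene scaled to the normalised library total, and each count is a tag from a transcript's 3′ end, so levels are compared between groups and never between genes. The 8 fibroblast markers summed to between 16810.5 and 31503 CPM in every library. This sum does not show that each marker held its level. Col1a1, Col1a2, Col3a1 and Fn1 were higher at SiO2 day 7 than in untreated lungs, as given below. By group means the rest of the list (Pdgfra, Dcn, Lum and Pdgfrb) together stood lower there. Markers of cell types that the sort should remove were low but not absent. The 9 lymphocyte markers in the files summed to 4.92 to 10.8 CPM in untreated libraries and 30.3 to 72.7 CPM at SiO2 day 7. At BLM day 7 the median was 55.5 and the highest value 56.0 CPM, and the lowest library was also above untreated. These sums do not stand for the whole list. At SiO2 day 7, 6 of the 9 (Cd3e, Cd3g, Cd4, Cd8a, Cd79a and Cd79b) had no count. Cd3e, Cd79a and Cd79b had none at BLM day 7, and 5 of the 9 had none in untreated lungs. Of the 2 lymphocyte markers tested, 1 rose in each day 7 group. The 10 epithelial markers summed to 8.29 to 14.0 CPM in untreated libraries, 29.8 to 35.1 CPM at BLM day 7 and 21.3 to 33.6 CPM at SiO2 day 7. The 2 of them that were tested rose in both day 7 groups (BLM, 16.7% of all tested genes, and SiO2, 23.4%). The 7 endothelial markers summed to 22.6 to 31.4 CPM in untreated libraries and 8.10 to 14.3 CPM at SiO2 day 7, with Cdh5 and Cldn5 at 0 in untreated lungs. Ptprc (CD45) reached at most 1.19 CPM in any library. Summed pericyte and smooth muscle markers were higher in several treated groups (33.2 to 42.7 CPM in untreated libraries, 338 to 452 CPM at SiO2 day 7), and summed mesothelial markers were lower (516 to 642 CPM against 127 to 180.1 CPM). Mcam, Rgs5 and Cnn1 had no count in untreated lungs. The former list mixes pericyte genes with contractile genes such as Myh11 and Actg2, so its sum does not measure pericytes alone. Neither sum stands for each of its markers. The marker sums of these cell types move with several results below, and their part in them was not tested. In sorted bulk cells, fewer cells that express a gene and less RNA per cell cannot be told apart.

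**Figure D1:**
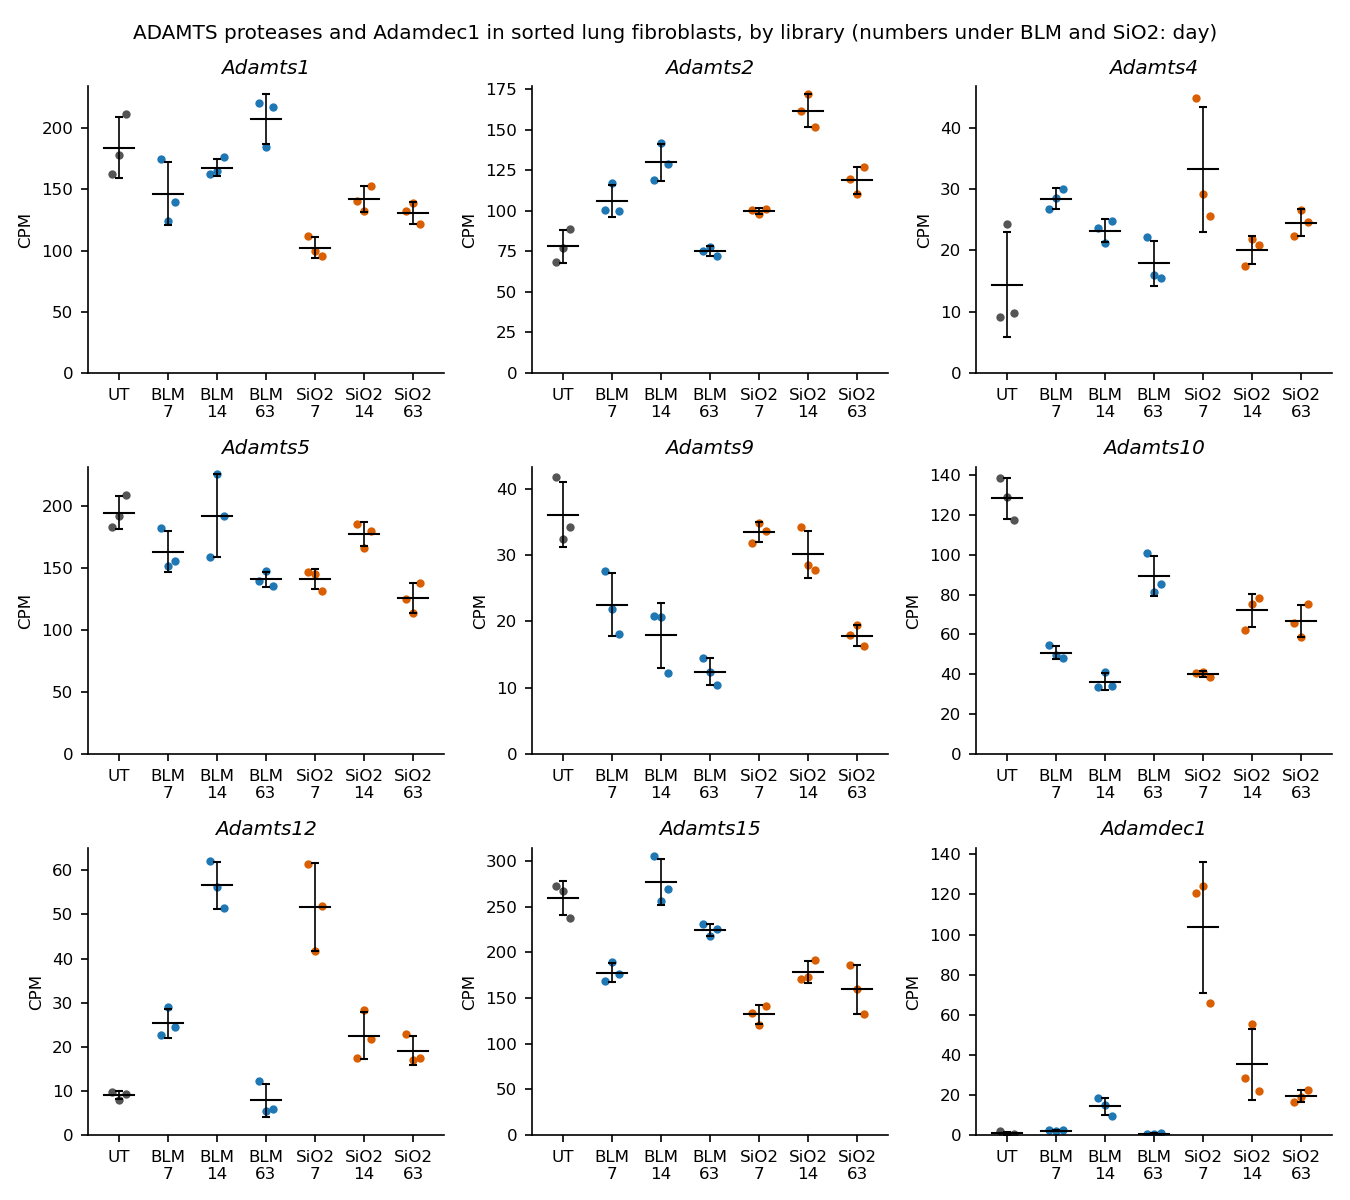
Normalised level (CPM, linear axis from 0) of each of the 9 genes in the 21 libraries; points are libraries, the horizontal line is the group mean and the bar its SD (n = 3). Adamdec1 stands between 65.8 and 124 CPM at SiO2 day 7 and at most at 1.81 CPM in untreated libraries, while Adamts10 is lower in each treated library than in any untreated one.

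The members moved apart rather than as a family. Against untreated lungs at BLM day 7, 3 rose, as did 16.7% of all tested genes, and 4 fell, as did 14.9%. At BLM day 14, 4 rose (20.7% of tested genes) and 2 fell (18.5%), and at BLM day 63 none rose (6.02%) and 3 fell (5.48%). In the SiO2 groups, 4 rose (23.4%) and 4 fell (20.6%) at day 7, 3 rose (13.6%) and 3 fell (10.5%) at day 14, and 4 rose (15.3%) and 5 fell (12.5%) at day 63. The median log2 fold change of the 9 ran from -0.49 (SiO2 day 63) to 0.09 (BLM day 14), and that of all tested genes from 0.01 to 0.04. Adamts2, Adamts4, Adamts12 and Adamdec1 made up all the increases, and Adamts1, Adamts5, Adamts9, Adamts10 and Adamts15 all the decreases. All 6 comparisons share the 3 untreated libraries. The map of changes against untreated lungs shows these values side by side.

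**Figure D2:**
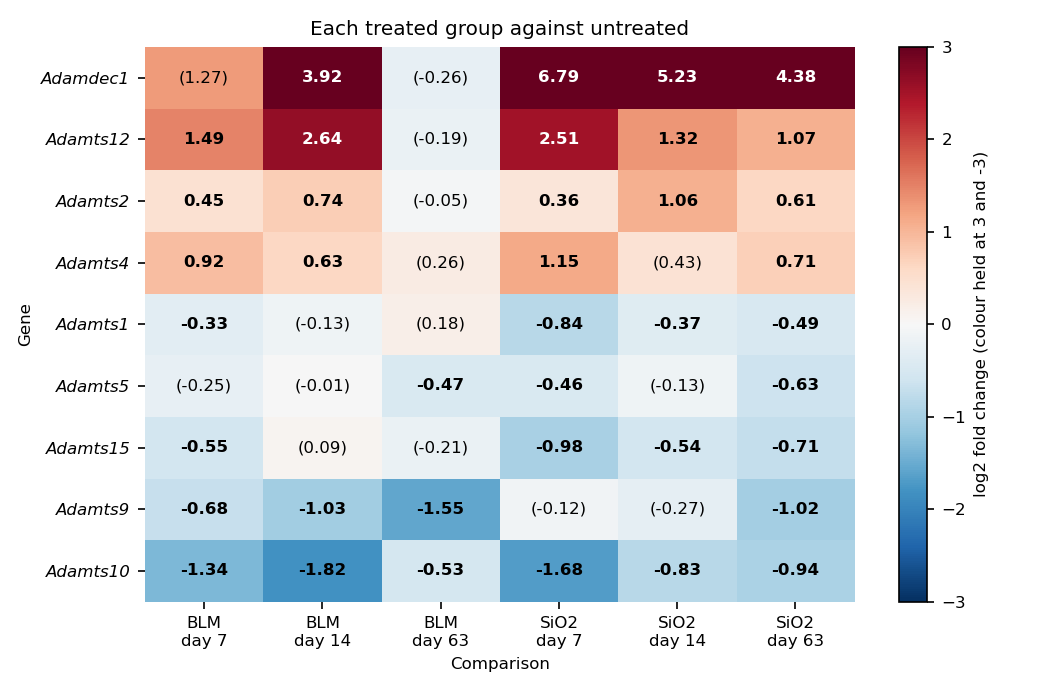
Log2 fold change of each gene (rows) in each treated group against untreated lungs (columns), with 3 libraries per group. Bold values passed the test at an adjusted p under 0.05, values in brackets did not, and red is higher and blue lower. Adamts10 passed in all 6 columns and Adamts12 in all but BLM day 63.

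The procollagen amino-propeptidase Adamts2 (chr11:50602084-50807573, plus strand) rose in both models, and BLM day 63 was the only treated group in which it did not pass the test. The untreated libraries held 68.6, 77.4 and 89.0 CPM. BLM libraries held 100.4, 118 and 100.1 CPM at day 7, 119, 142 and 129 CPM at day 14, and 75.2, 78.1 and 72.0 CPM at day 63. SiO2 libraries held 100.3, 98.0 and 101 CPM at day 7, 162, 172 and 152 CPM at day 14, and 119.8, 110.2 and 127 CPM at day 63. All libraries of BLM day 7 and 14 and of the 3 SiO2 groups lay above the highest untreated one, and those of BLM day 63 overlapped with untreated. The log2 fold change was 0.45 ± 0.11 (SE, adjusted p = 0.0020) at BLM day 7, 0.74 ± 0.11 (adjusted p = 2.2e-06) at BLM day 14, and 1.06 ± 0.11 (adjusted p = 9.6e-09) at SiO2 day 14, its highest group. At SiO2 day 63 it was 0.61 ± 0.11 (adjusted p = 5.2e-05), and at BLM day 63 -0.05 ± 0.11 (adjusted p = 0.84, 95% interval -0.28 to 0.18). The change at SiO2 day 7, 0.36 ± 0.11 (adjusted p = 0.0079), was not called without untreated replicate 1 (0.27, adjusted p = 0.080).

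Col1a1, a chain of type I collagen and a substrate of this step, rose in the same 5 groups. Its mean was 689 ± 27.4 CPM (SD, n = 3) in untreated lungs, 3562 ± 345 CPM at BLM day 14 and 4378 ± 335 CPM at SiO2 day 7. Col3a1, the type III collagen chain, went from 2329 ± 235 to 8998 ± 464 and 8279 ± 718 CPM in the same groups, and it also rose at BLM day 63 (log2 0.43 ± 0.12, adjusted p = 0.017), where Adamts2 did not pass. Adamts2 was highest in the SiO2 model at day 14, when Col1a1 stood at 2293 ± 367 CPM. Adamts14, a further procollagen amino-propeptidase, rose at BLM day 7 (log2 1.12 ± 0.41, adjusted p = 0.037), BLM day 14 (1.22 ± 0.41, adjusted p = 0.019) and SiO2 day 7 (2.22 ± 0.36, adjusted p = 1.0e-05). Adamts3, the remaining member of that trio, rose at SiO2 day 7 (2.08 ± 0.58, adjusted p = 0.0038). On the other end of the procollagen chain, the carboxy-propeptidase Bmp1 rose in every treated group but BLM day 63, from 13.6 ± 4.18 CPM to 75.7 ± 14.0 CPM at SiO2 day 7, while its enhancers Pcolce and Pcolce2 fell in all 6 groups. Pcolce2 went from 459 ± 25.9 to 47.1 ± 7.88 CPM at SiO2 day 7. Adamts3, Adamts14 and, below, Adamts7 are outside the rule for named genes and stand here as the nearest relatives of members.

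Among the proteoglycan-cutting members, Adamts15 and Adamts1 fell most clearly at SiO2 day 7. Adamts15 (chr9:30899155-30922452, minus strand) had 273, 267 and 238 CPM in untreated libraries. After BLM it had 168, 189 and 177 CPM at day 7, 305, 256 and 269.7 CPM at day 14, and 231, 218 and 225 CPM at day 63. After SiO2 it had 134, 120.4 and 142 CPM at day 7, 171, 173 and 192 CPM at day 14, and 186, 159 and 133 CPM at day 63. Every SiO2 library was below every untreated one, whereas BLM day 14 overlapped with untreated. The fall was -0.98 ± 0.11 on the log2 scale (adjusted p = 1.7e-08) at SiO2 day 7, -0.54 ± 0.11 (adjusted p = 0.00041) at day 14 and -0.71 ± 0.11 (adjusted p = 8.4e-06) at day 63. In the BLM model only day 7 was called (-0.55 ± 0.11, adjusted p = 0.00027), with 0.09 ± 0.11 at day 14 (95% interval -0.13 to 0.31) and -0.21 ± 0.11 at day 63 (95% interval -0.43 to 0.01).

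Adamts1 (chr16:85793827-85803113, minus strand) had 162, 178 and 212 CPM in untreated libraries. After BLM it had 175, 124 and 139.8 CPM at day 7, 163, 165 and 176 CPM at day 14, and 221, 184 and 217 CPM at day 63, so all BLM groups overlapped with untreated. The SiO2 libraries, with 112, 99.9 and 95.2 CPM at day 7, 141, 132 and 153 CPM at day 14 and 132, 139 and 121 CPM at day 63, all lay below untreated. Its log2 fold change was -0.84 ± 0.12 (adjusted p = 1.1e-06) at SiO2 day 7 and -0.49 ± 0.12 (adjusted p = 0.0021) at SiO2 day 63. The smaller decreases at SiO2 day 14 (-0.37 ± 0.12, adjusted p = 0.023) and BLM day 7 (-0.33 ± 0.12, adjusted p = 0.036) were lost when 1 library was left out. Without untreated replicate 3 they were -0.27 (adjusted p = 0.13) and -0.22 (adjusted p = 0.20). At SiO2 day 14 leaving out SiO2 day 14 replicate 1 (adjusted p = 0.066) or 2 (adjusted p = 0.091) also ended the call. At BLM day 7 the call also ended without untreated replicate 2 (adjusted p = 0.068), BLM day 7 replicate 2 (-0.22, adjusted p = 0.23) or BLM day 7 replicate 3 (adjusted p = 0.11).

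Adamts5 (chr16:85856173-85901828, minus strand), a major aggrecan-cutting enzyme of cartilage, fell late in both models. It had 183, 192 and 209 CPM in untreated libraries, 139.9, 147 and 135 CPM at BLM day 63 and 125, 114 and 138 CPM at SiO2 day 63, with no overlap between the treated and untreated libraries. The log2 fold change was -0.47 ± 0.11 (adjusted p = 0.0058) at BLM day 63 and -0.63 ± 0.11 (adjusted p = 7.6e-05) at SiO2 day 63. SiO2 day 7, with 147, 145 and 132 CPM, was also lower (-0.46 ± 0.11, adjusted p = 0.0013). At day 14 neither model passed the test: BLM libraries held 159, 226 and 192 CPM (-0.01 ± 0.11) and SiO2 libraries 185, 167 and 180.3 CPM (-0.13 ± 0.11), both overlapping with untreated. BLM day 7, with 183, 152 and 156 CPM, did not pass either (-0.25 ± 0.11, adjusted p = 0.090).

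Adamts9 (chr6:92772699-92943492, minus strand), a versican-cutting enzyme, fell at each day after BLM and at day 63 after SiO2. The untreated libraries held 41.7, 32.4 and 34.2 CPM. BLM libraries held 27.6, 21.9 and 18.1 CPM at day 7, 20.8, 20.6 and 12.2 CPM at day 14, and 14.4, 12.3 and 10.5 CPM at day 63, all below untreated. SiO2 libraries held 31.9, 34.8 and 33.7 CPM at day 7, 34.2, 28.5 and 27.7 CPM at day 14, and 17.9, 19.4 and 16.2 CPM at day 63, and only the last group was apart from untreated. The log2 fold changes in the BLM model were -0.68 ± 0.18 (adjusted p = 0.0035), -1.03 ± 0.19 (adjusted p = 4.1e-05) and -1.55 ± 0.19 (adjusted p = 1.2e-06). In the SiO2 model they were -0.12 ± 0.17 (adjusted p = 0.61), -0.27 ± 0.17 (adjusted p = 0.28) and -1.02 ± 0.18 (adjusted p = 4.9e-05). At BLM day 63 the called members were Adamts9, Adamts10 and Adamts5, in order of the size of their fold. Adamts9 overlaps A730049H05Rik and 9530026P05Rik on the opposite strand, and the strand setting of the counting is not given in the sources used here, so reads of these genes cannot be told apart.

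Adamts4 (chr1:171250421-171260637, plus strand) is an aggrecan- and versican-cutting enzyme, and it was the proteoglycan-cutting member that rose. Its untreated libraries were uneven, at 9.07, 24.4 and 9.83 CPM. BLM libraries held 26.7, 28.5 and 30.1 CPM at day 7, 23.7, 21.2 and 24.9 CPM at day 14, and 22.2, 16.1 and 15.6 CPM at day 63. SiO2 libraries held 44.9, 29.2 and 25.6 CPM at day 7, 17.5, 21.9 and 20.9 CPM at day 14, and 22.3, 26.6 and 24.7 CPM at day 63. At day 7 of both models every library was above the highest untreated one, and the other groups reached into the untreated range. Adamts4 rose at BLM day 7 (log2 0.92 ± 0.25, adjusted p = 0.0047), BLM day 14 (0.63 ± 0.26, adjusted p = 0.049), SiO2 day 7 (1.15 ± 0.24, adjusted p = 0.00027) and SiO2 day 63 (0.71 ± 0.25, adjusted p = 0.031).

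These Adamts4 values depended on untreated replicate 2, its highest untreated library. Without it the log2 fold changes were 1.61 (BLM day 7), 1.31 (BLM day 14), 1.82 (SiO2 day 7) and 1.39 (SiO2 day 63), and BLM day 63 (0.94, adjusted p = 0.018) and SiO2 day 14 (1.10, adjusted p = 0.0020) passed as well. Without untreated replicate 1 the calls at BLM day 7 (0.63, adjusted p = 0.069), BLM day 14 (0.33, adjusted p = 0.36) and SiO2 day 63 (0.41, adjusted p = 0.28) were lost. Without untreated replicate 3 those at BLM day 14 (0.46, adjusted p = 0.19) and SiO2 day 63 (0.54, adjusted p = 0.14) were lost. The call at BLM day 14 also ended without any 1 BLM day 14 library (adjusted p from 0.057 to 0.13), and that at SiO2 day 63 without SiO2 day 63 replicate 2 (adjusted p = 0.093) or 3 (adjusted p = 0.072). Only the rise at SiO2 day 7 kept its call with any 1 library left out.

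Versican (Vcan), a substrate of these enzymes, rose at day 7 of both models, from 16.8 ± 2.56 to 46.4 ± 3.33 CPM after BLM and 50.6 ± 8.55 CPM after SiO2 (adjusted p = 6.3e-08 and 4.3e-09). It also rose at SiO2 day 14 (log2 0.69 ± 0.18, adjusted p = 0.0049). Timp3, an inhibitor of several ADAMTS proteases, fell at day 7. It went from 531 ± 52.9 to 332 ± 35.7 CPM at BLM day 7 (log2 -0.68 ± 0.13, adjusted p = 0.00015) and 278 ± 35.8 CPM at SiO2 day 7 (-0.93 ± 0.13, adjusted p = 8.2e-07). It was also lower at BLM day 14 (-0.33 ± 0.13, adjusted p = 0.043). At day 63 Timp3 stood above untreated after BLM (710.3 ± 37.8 CPM, adjusted p = 0.030) and below it after SiO2 (386 ± 28.0 CPM, adjusted p = 0.0076). Transcripts of the clearance receptor Lrp1 ranged between group means of 614 and 840.2 CPM and were called against untreated only at SiO2 day 7 (-0.28 ± 0.10, adjusted p = 0.027). The convertase Furin was called only there too (0.75 ± 0.24, adjusted p = 0.011). Vcan, Timp3, Lrp1, Furin, Col3a1 and Fbn1 were named for their known roles and not by the rule for named genes.

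The fibrillin-binding member Adamts10 (chr17:33524204-33553782, plus strand) fell in all 6 treated groups. Its untreated libraries held 138, 129 and 118 CPM. BLM libraries held 54.6, 49.9 and 48.2 CPM at day 7, 33.6, 41.2 and 34.0 CPM at day 14, and 101, 81.5 and 85.4 CPM at day 63. SiO2 libraries held 40.6, 41.2 and 38.5 CPM at day 7, 62.4, 75.1 and 78.5 CPM at day 14, and 66.0, 58.8 and 75.2 CPM at day 63. No treated library reached the lowest untreated one. Against untreated the log2 fold change was -1.34 ± 0.12 at BLM day 7, -1.82 ± 0.13 at BLM day 14 and -0.53 ± 0.12 at BLM day 63 (adjusted p = 1.0e-09, 1.3e-12 and 0.0027). In the SiO2 model it was -1.68 ± 0.13 at day 7, -0.83 ± 0.12 at day 14 and -0.94 ± 0.12 at day 63 (adjusted p = 3.0e-12, 3.6e-06 and 2.8e-07). Its lowest group was thus day 14 after BLM and day 7 after SiO2. Fibrillin-1 (Fbn1), its binding partner, rose in every treated group but BLM day 63, from 193 ± 8.03 CPM to 572 ± 56.0 CPM at BLM day 14 and 469 ± 21.5 CPM at SiO2 day 7.

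Adamts12 (chr15:11064790-11349231, plus strand) rose in every treated group except BLM day 63. It had 9.84, 8.04 and 9.36 CPM in untreated libraries. After BLM it had 22.6, 29.1 and 24.4 CPM at day 7, 62.2, 56.2 and 51.4 CPM at day 14, and 12.2, 5.45 and 6.00 CPM at day 63. After SiO2 it had 61.5, 41.7 and 51.9 CPM at day 7, 17.5, 28.2 and 21.9 CPM at day 14, and 22.9, 17.0 and 17.4 CPM at day 63. BLM day 63 was the only treated group that overlapped with untreated. The log2 fold change was 2.64 ± 0.22 (adjusted p = 7.3e-11) at BLM day 14 and 2.51 ± 0.22 (adjusted p = 1.2e-10) at SiO2 day 7, about 6.23-fold and 5.71-fold. It was 1.49 ± 0.24 (adjusted p = 1.3e-05) at BLM day 7, 1.32 ± 0.24 (adjusted p = 0.00010) at SiO2 day 14 and 1.07 ± 0.24 (adjusted p = 0.0010) at SiO2 day 63. At BLM day 63 it was -0.19 ± 0.28 (adjusted p = 0.74, 95% interval -0.76 to 0.37).

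Adamdec1 (chr14:68563380-68582095, minus strand) had the widest range of the 9. Untreated libraries held 7, 1 and 1 counts, or 1.81, 0.251 and 0.468 CPM, and BLM day 63 libraries 3, 1 and 5 counts, or 0.747, 0.287 and 1.11 CPM. After BLM it had 2.32, 1.85 and 2.54 CPM at day 7 and 18.4, 14.9 and 9.67 CPM at day 14. After SiO2 it had 121, 124 and 65.8 CPM at day 7, 28.2, 55.4 and 21.9 CPM at day 14, and 16.6, 18.9 and 22.5 CPM at day 63. All libraries of BLM day 7 and 14 and of the SiO2 groups lay above all untreated ones, and BLM day 63 overlapped with untreated. The log2 fold change was 6.79 ± 0.43 (adjusted p = 8.4e-14) at SiO2 day 7, about 111-fold, 5.23 ± 0.48 (adjusted p = 9.9e-10) at SiO2 day 14 and 4.38 ± 0.52 (adjusted p = 8.3e-08) at SiO2 day 63. At BLM day 14 it was 3.92 ± 0.56 (adjusted p = 1.2e-06). BLM day 7 did not pass (1.27 ± 0.80, adjusted p = 0.24), nor did BLM day 63 (-0.26 ± 0.98, adjusted p = 0.92, 95% interval -2.26 to 1.75). The size of these folds rests on 9 counts over the untreated libraries, 7 of them in replicate 1. No untreated, BLM day 7 or BLM day 63 library reached the filter's least count of 10. Adamdec1 thus entered the test through BLM day 14 and the SiO2 groups, in which it was then called. Without untreated replicate 1 the log2 fold change was 8.15 at SiO2 day 7, 6.59 at SiO2 day 14, 5.74 at SiO2 day 63 and 5.28 at BLM day 14, and the 4 calls were kept.

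Since macrophages are a known source of Adamdec1, its level was set beside the myeloid markers. The 16 of 18 listed markers found in the files summed to 16.6 to 31.8 CPM in untreated libraries and to 28.9 to 34.3 CPM at SiO2 day 7, where Adamdec1 was highest. The sum was higher at SiO2 day 14 (69.0 to 90.6 CPM), SiO2 day 63 (57.8 to 64.4 CPM) and BLM day 7 (55.7 to 63.7 CPM), and stood at 28.6 to 40.3 CPM at BLM day 14 and 10.9 to 23.6 CPM at BLM day 63. At SiO2 day 7 Fcer1g, Itgax and Mrc1 had no count, the first pair of these also having none in untreated lungs, and Cd68 reached at most 0.251 CPM and Csf1r 0.531 CPM in a library. Tyrobp was at 7.85 to 12.0 CPM there against 2.59 to 5.78 CPM in untreated libraries, and Lyz2 at 0.797 to 1.25 CPM against 0 to 0.468 CPM. Cd14 overlapped, at 2.39 to 5.02 CPM against 2.01 to 3.75 CPM. Of the 5 myeloid markers that passed the filter, 1 rose (23.4% of all tested genes) and none fell (20.6%) at SiO2 day 7, and 3 rose at BLM day 7 (16.7%). The part of myeloid RNA in the level of Adamdec1 was not tested.

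**Figure D3:**
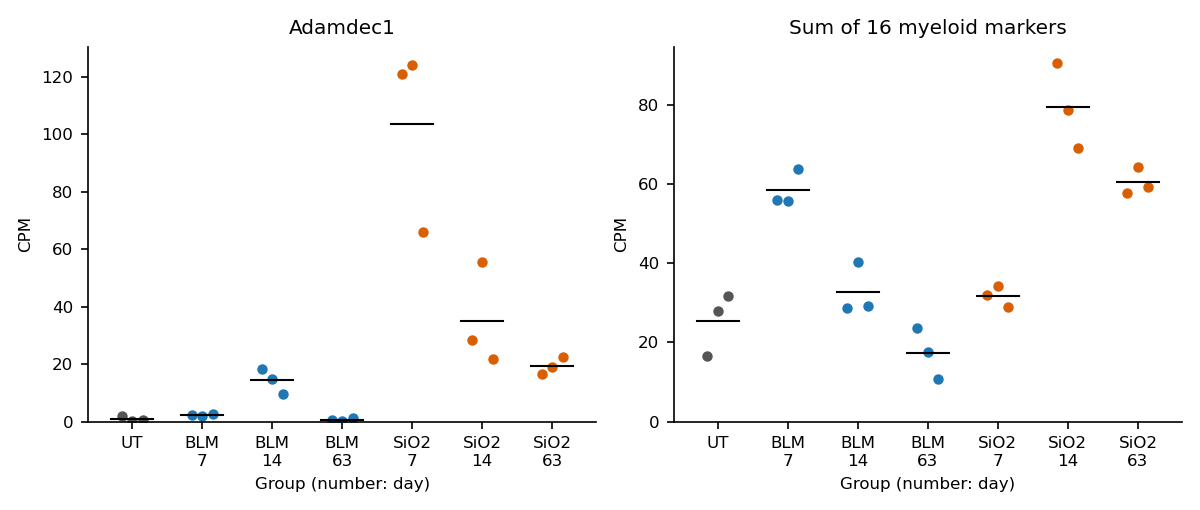
Left, the level of Adamdec1 and right, the summed level of 16 myeloid marker genes, in CPM on linear axes from 0, for each library (points) with the group mean (line). Adamdec1 is highest at SiO2 day 7 (65.8 to 124 CPM), and the marker sum is highest at SiO2 day 14 (69.0 to 90.6 CPM).

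SiO2 and BLM were then compared at the same day, which asks where the progressive and the reversible model differ. At day 7, 3 members were higher in SiO2 (5.29% of tested genes) and 2 lower (5.10%). At day 14, 4 were higher (9.06%) and 2 lower (8.03%), and at day 63, 3 were higher (9.13%) and 3 lower (6.44%). Adamdec1 was higher in SiO2 at every day, by 5.52 ± 0.36 on the log2 scale at day 7 (adjusted p = 2.3e-12), 1.31 ± 0.29 at day 14 (adjusted p = 0.0014) and 4.63 ± 0.51 at day 63 (adjusted p = 4.1e-08). At day 14 the difference fell to 0.82 (adjusted p = 0.043) without SiO2 day 14 replicate 2, the library at 55.4 CPM. Adamts15 was lower in SiO2 at every day, by -0.43 ± 0.11 (adjusted p = 0.0091), -0.63 ± 0.11 (adjusted p = 7.9e-05) and -0.50 ± 0.11 (adjusted p = 0.0015). The first of these did not pass without SiO2 day 7 replicate 2 (-0.38, adjusted p = 0.069).

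Adamts12 changed sides between days: it was higher in SiO2 at day 7 (1.02 ± 0.19, adjusted p = 0.00032), lower at day 14 (-1.32 ± 0.19, adjusted p = 6.3e-06) and higher at day 63 (1.26 ± 0.24, adjusted p = 0.00027). Adamts10 was higher in SiO2 at day 14 (0.99 ± 0.13, adjusted p = 1.3e-06) and lower at day 63 (-0.42 ± 0.12, adjusted p = 0.015). The day 63 difference did not pass without BLM day 63 replicate 1 (-0.32, adjusted p = 0.12) or SiO2 day 63 replicate 2 (-0.34, adjusted p = 0.11). Adamts1 was lower in SiO2 at day 7 (-0.51 ± 0.12, adjusted p = 0.0040) and day 63 (-0.67 ± 0.12, adjusted p = 0.00011). Its day 7 difference did not pass without BLM day 7 replicate 1 (-0.37, adjusted p = 0.067). Adamts2 was higher in SiO2 at day 63 (0.67 ± 0.11, adjusted p = 2.9e-05).

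Smaller differences rested on single libraries. Adamts2 was higher in SiO2 at day 14 (0.32 ± 0.10, adjusted p = 0.033), which was lost without BLM day 14 replicate 1 or 3 or SiO2 day 14 replicate 1 or 2 (adjusted p from 0.076 to 0.16). Adamts9 was higher in SiO2 at day 7 (0.57 ± 0.18, adjusted p = 0.035) and day 14 (0.76 ± 0.19, adjusted p = 0.0037). The former was lost without BLM day 7 replicate 2 or 3 or any 1 SiO2 day 7 library (adjusted p from 0.054 to 0.19), and the latter without BLM day 14 replicate 3 (0.54, adjusted p = 0.057). Adamts4 and Adamts5 passed at no day. Their differences had 95% intervals of -0.23 to 0.68, -0.70 to 0.29 and -0.03 to 0.94 for Adamts4 and of -0.44 to 0.02, -0.35 to 0.11 and -0.39 to 0.07 for Adamts5, at day 7, 14 and 63.

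**Figure D4:**
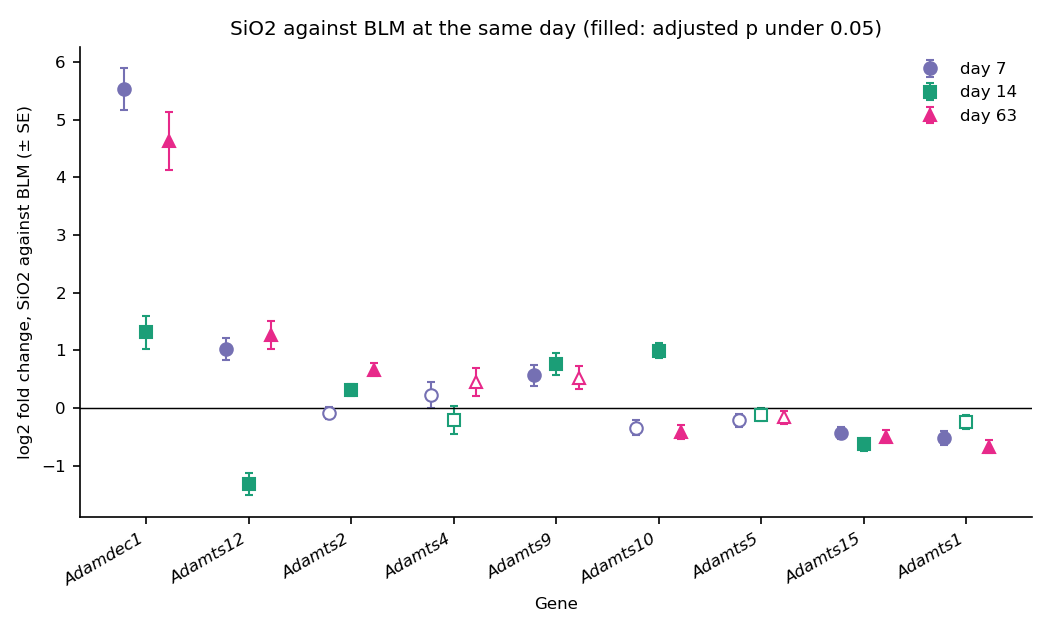
Log2 fold change of SiO2 against BLM at the same day, with its SE, for each of the 9 genes; circles are day 7, squares day 14 and triangles day 63, filled where the adjusted p was under 0.05, and each value compares 3 libraries with 3. Adamdec1 lies above 0 at each day, Adamts15 below 0, and Adamts12 on both sides.

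Between day 7 and day 14, 3 members rose (5.20% of tested genes) and 1 fell (4.82%) in the BLM model, and 5 rose (12.2%) and 3 fell (11.1%) in the SiO2 model. After BLM, Adamdec1 (2.65 ± 0.46, adjusted p = 0.00017), Adamts12 (1.15 ± 0.19, adjusted p = 0.00011) and Adamts15 (0.64 ± 0.11, adjusted p = 0.00017) rose on the log2 scale. Adamts10 fell (-0.49 ± 0.13, adjusted p = 0.017), a call lost without BLM day 7 replicate 1 or BLM day 14 replicate 1 or 3 (adjusted p from 0.075 to 0.091). After SiO2 the first pair went the other way, with Adamdec1 at -1.56 ± 0.24 (adjusted p = 1.2e-05) and Adamts12 at -1.19 ± 0.19 (adjusted p = 1.9e-05), and Adamts10 at 0.85 ± 0.13 (adjusted p = 7.5e-06). Adamts2 (0.70 ± 0.11, adjusted p = 7.9e-06), Adamts1 (0.47 ± 0.12, adjusted p = 0.0039) and Adamts15 (0.44 ± 0.11, adjusted p = 0.0038) also rose after SiO2. The remaining calls, Adamts4 at -0.72 ± 0.23 (adjusted p = 0.020) and Adamts5 at 0.33 ± 0.11 (adjusted p = 0.033), were lost without single libraries: Adamts4 without SiO2 day 7 replicate 1 (-0.44, adjusted p = 0.21) or SiO2 day 14 replicate 1 (adjusted p = 0.080), and Adamts5 without SiO2 day 7 replicate 2 or 3 or SiO2 day 14 replicate 1 or 3 (adjusted p from 0.058 to 0.13).

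Between day 14 and day 63, 2 rose (15.4% of tested genes) and 5 fell (16.9%) after BLM, and none rose (1.53%) and 3 fell (2.00%) after SiO2. After BLM, Adamdec1 (-4.18 ± 0.55, adjusted p = 4.5e-07), Adamts12 (-2.83 ± 0.22, adjusted p = 2.0e-11), Adamts2 (-0.79 ± 0.11, adjusted p = 8.7e-07) and Adamts5 (-0.45 ± 0.11, adjusted p = 0.0025) fell and Adamts10 (1.30 ± 0.13, adjusted p = 3.3e-09) rose. The calls for Adamts1 (0.31 ± 0.12, adjusted p = 0.045) and Adamts15 (-0.30 ± 0.11, adjusted p = 0.032) were lost with 5 of the 6 libraries left out in turn, all but BLM day 63 replicate 2 for Adamts1 and all but BLM day 14 replicate 2 for Adamts15. After SiO2, Adamts9 (-0.75 ± 0.18, adjusted p = 0.014), Adamts5 (-0.49 ± 0.11, adjusted p = 0.010) and Adamts2 (-0.44 ± 0.10, adjusted p = 0.012) fell. Each of these was lost without 1 library: Adamts9 without SiO2 day 14 replicate 1 (adjusted p = 0.080) or SiO2 day 63 replicate 3 (adjusted p = 0.079), Adamts5 without SiO2 day 63 replicate 2 (adjusted p = 0.087), and Adamts2 without SiO2 day 14 replicate 2 (adjusted p = 0.063) or SiO2 day 63 replicate 2 (adjusted p = 0.091). Adamdec1 fell short of the test between these days after SiO2 (-0.86 ± 0.27, adjusted p = 0.073), as did Adamts12 (-0.25 ± 0.21, 95% interval -0.67 to 0.18) and Adamts10 (-0.11 ± 0.12, 95% interval -0.36 to 0.14).

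The change over time differed between the models for 3 members, tested as an interaction (the change in SiO2 minus the change in BLM). From day 7 to day 14 it was -4.21 ± 0.51 for Adamdec1 (adjusted p = 3.5e-07), -2.34 ± 0.27 for Adamts12 (adjusted p = 1.7e-07) and 1.33 ± 0.19 for Adamts10 (adjusted p = 3.3e-06), with 9.74% of tested genes called above 0 and 9.47% below. From day 14 to day 63 the signs turned, to 3.32 ± 0.65 for Adamdec1 (adjusted p = 0.00034), 2.58 ± 0.31 for Adamts12 (adjusted p = 2.4e-07) and -1.41 ± 0.18 for Adamts10 (adjusted p = 6.6e-07), with 9.70% called above 0 and 8.81% below. For the other 6 members neither interaction passed. Nearest were Adamts2 from day 7 to day 14 (0.40 ± 0.15, adjusted p = 0.056) and Adamts1 from day 14 to day 63 (-0.43 ± 0.17, adjusted p = 0.075), which passed with upper quartile scaling (adjusted p = 0.041 and 0.047). Both interactions use the same day 14 libraries.

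Of 54 neighbouring pairs in the order of group means over the 9 members, 10 passed the test. Adamdec1 ran from SiO2 day 7 over SiO2 day 14, SiO2 day 63, BLM day 14, BLM day 7 and untreated to BLM day 63, with breaks after SiO2 day 7 (adjusted p = 1.2e-05) and after BLM day 14 (adjusted p = 0.00017). Adamts12 ran from BLM day 14 and SiO2 day 7, over BLM day 7, SiO2 day 14 and SiO2 day 63, to untreated and BLM day 63, with breaks between these 3 sets (adjusted p = 0.00032 and 0.0010). For Adamts10, which ran from untreated over BLM day 63, SiO2 day 14, SiO2 day 63, BLM day 7 and SiO2 day 7 to BLM day 14, untreated was apart from BLM day 63 (adjusted p = 0.0027) and SiO2 day 63 from BLM day 7 (adjusted p = 0.027, with 18.4% of tested genes called). Adamts2 had breaks between SiO2 day 14 and BLM day 14 and between SiO2 day 7 and untreated. Adamts1 had 1 break, between SiO2 day 63 and SiO2 day 7 (adjusted p = 0.031, with 24.5% called). Adamts15 had 1, between BLM day 63 and SiO2 day 14 (adjusted p = 0.035, with 17.3% called). No neighbouring groups of Adamts4, Adamts5 or Adamts9 passed. Adamts5 and Adamts9 were highest in untreated lungs, and Adamts4 was lowest there.

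Of the 11 other ADAMTS genes on the list, 9 were tested, and Adamts18 and Adamts20 were below the filter. At SiO2 day 7, 5 of the 9 rose (23.4% of all tested genes) and 2 fell (20.6%). Adamts16 is among these 5. It reached the filter's least count of 10 only at SiO2 day 7, so its being tested and its rise there are not separate facts. At BLM day 14, 3 rose (20.7%) and 2 fell (18.5%), and at BLM day 7 1 rose (16.7%) and 1 fell (14.9%). At SiO2 day 14 1 rose (13.6%), at SiO2 day 63 1 fell (12.5%), and at BLM day 63 none rose (6.02%) or fell (5.48%). Adamts8, the chromosome 9 neighbour of Adamts15 and likewise a proteoglycan-cutting enzyme, fell at SiO2 day 7 from 44.6, 45.5 and 44.5 CPM to 18.3, 13.0 and 8.86 CPM (-1.74 ± 0.19, adjusted p = 1.1e-08). It was also lower at BLM day 7 (-0.64 ± 0.18, adjusted p = 0.0063), BLM day 14 (-0.97 ± 0.19, adjusted p = 8.8e-05) and SiO2 day 63 (-0.65 ± 0.18, adjusted p = 0.0053). Adamts17 was highest at SiO2 day 14 (29.7 ± 7.55 CPM against 14.6 ± 2.34 CPM in untreated lungs, adjusted p = 0.00032). Compared with untreated lungs, Adamts17 was lower at SiO2 day 7 (9.14 ± 0.193 CPM, adjusted p = 0.012) and BLM day 14 (8.78 ± 0.884 CPM, adjusted p = 0.010). Adamts16 had no count in any untreated or BLM day 63 library and 43, 19 and 38 counts at SiO2 day 7, at least 28.4-fold higher than the limit of 3 counts over the untreated group. It was also called higher at BLM day 14, on 3, 6 and 1 counts (adjusted p = 0.018). With 3, 3 and 0 counts at SiO2 day 14 and 4, 2 and 0 at SiO2 day 63 it was not called (adjusted p = 0.11 each). Adamts7, the nearest relative of Adamts12, rose at SiO2 day 7 only (1.53 ± 0.41, adjusted p = 0.0030).

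**Figure D5:**
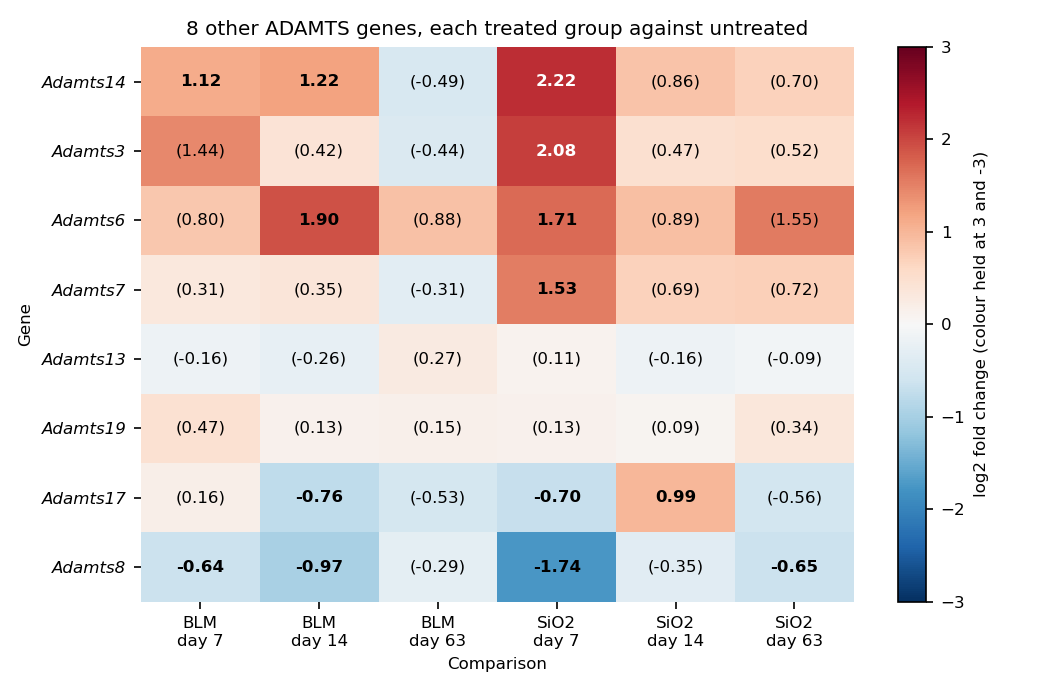
Log2 fold change of 8 further ADAMTS genes (rows) in each treated group against untreated lungs (columns), with 3 libraries per group; bold values passed the test, values in brackets did not. Adamts16, which had no count in untreated lungs, is left out. SiO2 day 7 has 4 rising and 2 falling genes among these 8, and BLM day 63 none.

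Of 15 tested substrates and matrix partners, 14 rose (16.7% of all tested genes) and 1 fell (14.9%) at BLM day 7. At BLM day 14, 13 rose (20.7%) and 1 fell (18.5%), and 3 rose at BLM day 63 (6.02%). In the SiO2 model 12 rose (23.4%) and 1 fell (20.6%) at day 7 and 12 rose at day 14 (13.6%). At SiO2 day 63, 10 rose (15.3%) and 1 fell (12.5%). The median log2 fold change of this list was 1.83 at SiO2 day 7 and 0.04 at BLM day 63, against 0.04 and 0.01 for all tested genes. The untreated mean of fibronectin (Fn1) was 259.8 ± 21.2 CPM, set against 2014 ± 191 CPM at BLM day 14 and 1049 ± 148 CPM at SiO2 day 7. Col1a2, whose promoter also drives the transgene, went from 1576 ± 93.2 to 6344 ± 288 and 6361 ± 351 CPM.

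Among 7 tested ADAM proteases, the membrane-bound relatives of the family, 4 rose at day 7 and 5 at day 14 in each model, 1 rose at BLM day 63 and 2 at SiO2 day 63, and none fell against untreated. Of all tested genes, 16.7%, 20.7% and 6.02% rose at BLM day 7, 14 and 63. The shares were 23.4%, 13.6% and 15.3% at SiO2 day 7, 14 and 63, and 5.48% to 20.6% fell across the 6 groups. Adam12 stood at 52.8 ± 18.7 CPM at BLM day 14, 53.0 ± 4.93 CPM at SiO2 day 7 and 1.04 ± 0.525 CPM at BLM day 63. Adam19 went from 4.61 ± 0.508 to 34.0 ± 2.01 and 41.6 ± 5.64 CPM, and Adam9 rose in all 6 groups. Of 14 tested genes for activation, inhibition, clearance and glycosylation of ADAMTS proteases, 6 rose (23.4% of all tested genes) and 4 fell (20.6%) at SiO2 day 7. At SiO2 day 14, 8 of them rose (13.6%) and 1 fell (10.5%). The convertase Pcsk5 went from 92.5 ± 1.56 CPM to 302 ± 70.6 CPM at BLM day 14, the inhibitor Timp1 from 14.2 ± 2.30 to 164 ± 16.4 CPM at BLM day 7, and the heparan sulfate proteoglycan Sdc1 from 1.38 ± 1.06 to 45.7 ± 8.69 CPM at SiO2 day 7.

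The ADAMTS-like proteins, which share the repeats but lack a protease domain, were divided at SiO2 day 7 and 14. At SiO2 day 7 1 of 6 tested rose (23.4% of all tested genes) and 3 fell (20.6%), and at SiO2 day 14 3 rose (13.6%) and 1 fell (10.5%). Thsd4, a fibrillin-binding member, had 7.21 ± 0.977 CPM in untreated lungs and rose in every treated group but BLM day 63. At day 14 it was higher after BLM (60.9 ± 4.36 CPM) than after SiO2 (15.4 ± 3.72 CPM), and that difference passed (-1.99 ± 0.21 for SiO2 against BLM, adjusted p = 2.1e-08). Adamtsl5 went from 217 ± 39.4 CPM to 51.7 ± 12.2 CPM at SiO2 day 7, and Adamtsl2 from 38.3 ± 1.08 to 14.2 ± 1.87 CPM.

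The tested genes most like each member over the 21 libraries were found by Pearson correlation of log2 values among 6341 genes with a mean of at least 10 CPM, as a description. The libraries share their 7 groups, so the correlations mostly follow the group means. Adamts10 was most like G0s2, Pcolce2 and Scn3a (r = 0.97 each), and Adamts12 most like Col5a1, Col7a1 and Uck2 (r = 0.95 to 0.96). By ranks only Pcolce2 stayed among the first 3 for Adamts10, and none of those named stayed for Adamts12. Col5a1, a type V collagen chain, had group means of 164 ± 6.30 CPM in untreated lungs, 769.7 ± 165 CPM at BLM day 14, 798 ± 68.7 CPM at SiO2 day 7 and 151 ± 13.2 CPM at BLM day 63. Adamdec1 was most like Grem1 (r = 0.95), a secreted antagonist of bone morphogenetic proteins, then Hp and Bmpr2 (r = 0.93 each). Grem1 was not among the first 3 by ranks or with a pseudocount of 0.1, whereas Hp and Bmpr2 were among them both ways. Grem1 had no count in untreated lungs and 62.6 ± 11.6 CPM at SiO2 day 7. Adamts2 was most like Glb1l (r = 0.91) and the proteoglycan gene Bgn (0.87), and Adamts1 most like Nebl (0.90). The likeness was weaker for Adamts5 (Prrc2b, 0.86), Adamts15 (F2r, 0.85), Adamts9 (the microfibril gene Mfap4, 0.85) and Adamts4 (Dcaf7, 0.81). With ranks in place of values 12 of the 27 named genes remained among the first 3, and with a pseudocount of 0.1 in place of 0.5, 24 remained. Nebl and Dcaf7 were among those lost by ranks.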

How the data were processed

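RNA of sorted fibroblasts was captured on oligo(dT) beads, amplified, and sequenced as 3′ end tags (3′SAGE-seq) on an Ion Proton, per the labels' protocols. The deposited files hold raw counts per gene symbol, 1 file per library. The submitters' processing notes name Bowtie2 2.2.5 and mm10, and the annotation, counting program, strand and filters are not given in the sources used here. Tags had no molecular identifiers, so counting floors cover counting error only.

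Of the 23204 symbols, 11669 passed edgeR's filterByExpr (least count 10, least total 15) and held 99.7% of counts. In edgeR 4.0.16 (R 4.3.3) libraries were scaled by TMM, and 1 quasi-likelihood model with the 7 groups (14 residual degrees of freedom, biological coefficient of variation 12.0%) gave 15 planned contrasts and all 21 pairs of groups. P-values were adjusted by Benjamini-Hochberg over all tested genes, an adjusted p under 0.05 was called, and every adjusted p in the text is from this test. SE is the log2 fold change divided by the root of F. CPM use the TMM factors. The steps were run on simulated counts in which a small set of genes changed in a single group. Far more genes were called in these data, so that run cannot speak for the scaling here. Libraries of a group differed beyond sampling noise (chi-square per degree of freedom 3.03 to 8.88). The labels name no batch.

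The members and lists were chosen with earlier results of these data known. Named genes were the 9 members, the 3 genes most like each (log2 of CPM plus 0.5), and up to 3 tested genes of each pathway list with the smallest adjusted p; others are said to be outside this rule. A gene without a count in a group was set against a floor of 3 counts over the group. Alternatives were other scalings (RLE, upper quartile), DESeq2 1.42.0, no filter, the replicate number as a block, only the groups compared, and each library left out in turn.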

Additional observations from a re-analysis of the deposited data

Results flagged for a closer look

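The change over time differed between the SiO2 and BLM models for 3 members by the interaction test, each value being the log2 change in SiO2 minus that in BLM. Adamdec1 had -4.21 from day 7 to day 14 and 3.32 from day 14 to day 63. Adamts12 had -2.34 and 2.58, and Adamts10 1.33 and -1.41, over the same spans. In all 3 genes the 2 values have opposite signs, and both use the day 14 libraries. Groups of 3 libraries are too small for a test of single outlying libraries.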

How the results depend on the processing

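Of the 135 log2 fold changes (9 members, 15 contrasts), 84 were called, 64 of these kept their call in every alternative run, 20 lost it in at least 1, and none changed sign. Under other scalings, DESeq2, no filter, the groups compared alone or the replicate block, every count of called members stayed within 1.5 times its value. Same-numbered libraries did not deviate together (median correlation -0.00038 over 63 pairs, 0 of them over 0.1, and 4 of 21 libraries closest to their own number). The numbers thus gave no sign of pairing, though a lack of correlation cannot exclude a shared handling order. With the replicate block 11 instead of 10 neighbouring groups were separated, and Adamts9 passed in SiO2 against BLM at day 63 (0.53, adjusted p = 0.043) and in BLM day 63 against day 14 (-0.51, adjusted p = 0.033). Without the filter Adamdec1 passed between SiO2 day 63 and day 14 (-0.85, adjusted p = 0.00019). Adamts4 at BLM day 14 against untreated was not called under RLE (0.060), upper quartile scaling (0.081), DESeq2 (0.051) or the groups compared alone (0.072), and Adamts4 at SiO2 day 63 not under upper quartile scaling (0.055), all adjusted p. Adamts1 at BLM day 7 (0.089 and 0.067) and Adamts2 in SiO2 against BLM at day 14 (0.11 and 0.058) were not called without the filter or with the groups compared alone. Adamts1 and Adamts15 in BLM day 63 against day 14 were not called without the filter (0.065 and 0.058), and Adamts15 not under upper quartile scaling (0.074). Adamts5 at BLM day 7 passed with upper quartile scaling (-0.30, adjusted p = 0.040). The cause of these changes was not tested.

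Leaving out 1 library at a time, the 5 called members of SiO2 against BLM at day 7 became 3 to 4, and the 3 called between SiO2 day 63 and day 14 became 1 to 4. The lowest values came without SiO2 day 7 replicate 2 and without SiO2 day 63 replicate 2. Sign changes touched only values that were not called. Adamts5 at BLM day 14 against untreated was 0.0057 without the filter and ran from -0.14 to 0.11 with libraries left out. With libraries left out, Adamts2 ran from -0.14 to 0.031, Adamts4 from -0.042 to 0.94 and Adamdec1 from -0.79 to 1.11 at BLM day 63 against untreated, and Adamts9 from -0.20 to 0.0037 at SiO2 day 7 against untreated. Adamts4 ran from -0.064 to 0.37 in SiO2 against BLM at day 7, and Adamts5 from -0.23 to 0.015 at day 14. In the interaction from day 7 to day 14 Adamts5 ran from -0.024 to 0.23 and Adamts9 from -0.029 to 0.33, and in that from day 14 to day 63 Adamts5 ran from -0.18 to 0.073. Depth limits Adamdec1 most, with 9 counts over the untreated group and 9 over BLM day 63.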
